A study of Homo sapiens with 12 samples.

Results

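The genes described here encode the nuclear-encoded subunits of the mitochondrial respiratory chain and of ATP synthase, measured by mRNA sequencing in a human neuroblastoma line, SH-SY5Y. Members were taken by symbol: genes of the NDUFA, NDUFB, NDUFC, NDUFS and NDUFV families, SDHA to SDHD, and the UQCR, COX4I, COX5, COX6, COX7, COX8 and ATP5 families, with at least 100 counts summed over the 12 libraries and without pseudogenes. Of 60710 gene rows, 268 carried one of these symbols. Of those, 186 fell below the minimum, 172 of them pseudogenes, and 1 further pseudogene stood above it. Of the remaining 81 rows, 2 were noncoding transcripts (NDUFA6-DT and NDUFV2-AS1), which were kept apart, so 79 subunit genes remained. Complex I was represented by 35 of them, complex II by 4, complex III by 9, complex IV by 13 (NDUFA4 and NDUFA4L2 are placed here) and complex V, the ATP synthase, by 18. All 79 passed the filter on low counts and were among the 16366 genes tested.

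The 12 libraries form 4 groups of 3. Cells in the control wells received the solvent DMSO alone, and the other wells received 5 µM HPPE, 5 µM zinc protoporphyrin or 5 µM tin protoporphyrin in the same solvent; all were lysed after 5 h. Zinc and tin protoporphyrin share the porphyrin ring of heme and differ in the metal it holds; HPPE is named in the labels by these letters only. All groups come from 1 cell line, and the labels do not say whether the 3 libraries of a group came from separate cultures, so p-values measure the spread between libraries, which may be in part technical. Total counts ran from 1337028 to 9145399 per library, and 3 libraries were shallow (DMSO replicate 3, HPPE replicate 3 and zinc protoporphyrin replicate 1). Of the noradrenergic markers, PHOX2A, HAND2, GATA3, ISL1, DBH and CHGA were above 100 CPM (read counts divided by library size, with TMM scaling) in every library, whereas TH was at or near 0 in all of them; the blood, liver and endothelial markers PTPRC, CD3E, ALB and PECAM1 were also at or near 0. Of the fibroblast markers, COL1A1 ran from 48.1 to 57.6 CPM, DCN from 8.93 to 18.4 CPM and COL1A2 from 3.19 to 7.87 CPM, and of the epithelial ones KRT18 ran from 7.81 to 11.02 CPM and EPCAM from 0 to 1.98 CPM; their part in the results was not tested. HMOX1, the inducible heme oxygenase, separated the treatments: it ran from 331.5 to 364.5 CPM in the HPPE libraries and from 29.8 to 67.8 CPM in those of zinc protoporphyrin, and stayed between 4.62 and 7.97 CPM in the other 6.

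The respiratory chain passes electrons from NADH (at complex I) and succinate (at complex II) through ubiquinone to complex III, cytochrome c and complex IV, where oxygen is reduced. Complexes I, III and IV pump protons out of the matrix, and complex V uses the gradient to make ATP. Complex II is encoded wholly in the nucleus, while the other complexes join nuclear subunits to a few core subunits read from mitochondrial DNA, so the 2 genomes have to supply parts of the same machines. Many nuclear subunit genes carry sites for NRF1, for ETS-family factors such as GABP and for YY1 at their promoters. SH-SY5Y cells, like other tumour lines, run both glycolysis and oxidative phosphorylation.

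Within the control group, UQCRH, the hinge protein of complex III, had the highest level per kilobase of coding sequence, at 534.1 ± 92.1 CPM per kb (SD, n = 3). NDUFA4, a subunit of complex IV, followed at 375.1 ± 112 CPM per kb, then ATP5F1E, the epsilon subunit of ATP synthase, at 344.4 ± 74.5, and COX7C, a small complex IV subunit, at 320.1 ± 92.1. These 4 overlapped in part: the SDs of NDUFA4, ATP5F1E and COX7C are larger than the gaps between them. This level divides counts by coding length only, although reads from untranslated parts may be counted too. ATP5F1E has 153 coding nucleotides in a transcript of 3665, and NDUFA4 has 243 in 2130. The order of the genes therefore depends on the divisor. The lowest level belonged to NDUFV2, a flavoprotein-fraction subunit of complex I, at 2.86 ± 0.749 CPM per kb, followed by SDHA, the flavoprotein of complex II that oxidises succinate, at 4.97 ± 1.25, NDUFB8 at 7.04 ± 1.15, NDUFA13 at 10.3 ± 2.65 and NDUFA4L2 at 10.8 ± 3.59. Partners that form complexes in fixed ratios thus differed widely in counted reads: SDHB, the iron-sulfur subunit that binds SDHA, stood at 38.4 ± 8.29 CPM per kb and SDHC, a membrane anchor of the same complex, at 88.1 ± 6.54. SDHC has 507 coding nucleotides in a transcript of 13566, so its value depends on the divisor too. Reads that match copies elsewhere can be lost in counting, and 4 pseudogene rows carry the symbol of SDHA. In NDUFB8, 48.5% of exonic bases overlap other genes, so the low values of these genes are uncertain as levels. UQCRHL is an intronless near-copy of UQCRH, and reads of this pair cannot be told apart with certainty.

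The isoforms that are typical of muscle, lung or testis were close to absent. Summed over 12 libraries, COX6A2 and COX7B2 had 0 counts, COX8C had 6, COX6B2 had 37, COX4I2 had 38 and COX7A1 had 47. Their common counterparts were well covered: COX4I1 had 9246 counts, COX7A2 3823, COX6B1 4224, COX8A 2806 and COX6A1 1430. The low rows include 1 gene of complex I that is not an isoform, NDUFA7, with 68 counts. NDUFA4L2, the hypoxia-linked relative of NDUFA4, passed the minimum with 215 counts.

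The subunits moved together between libraries, within groups as well as between them. Each subunit's log2 CPM was set against its own mean over 12 libraries, and the median over the 79 subunits was taken per library. In the DMSO control this median was -0.19, -0.10 and 0.31 in replicates 1, 2 and 3, and in the tin protoporphyrin group 0.26, -0.22 and -0.01. With HPPE it was -0.02, 0.25 and 0.28, and with zinc protoporphyrin -0.10, -0.13 and -0.35. All 3 zinc protoporphyrin libraries lay below all 3 HPPE libraries, while the control and the tin protoporphyrin group each spread over both. The range was 0.50 in the control and 0.48 in the tin protoporphyrin group, against 0.30 with HPPE and 0.25 with zinc protoporphyrin. In DMSO replicate 3, 70 of 79 subunits were above their own mean, against 8 of 79 in replicate 1 of the same group. In tin protoporphyrin replicate 1 the number was 75, against 6 in replicate 2.

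**Figure D1:**
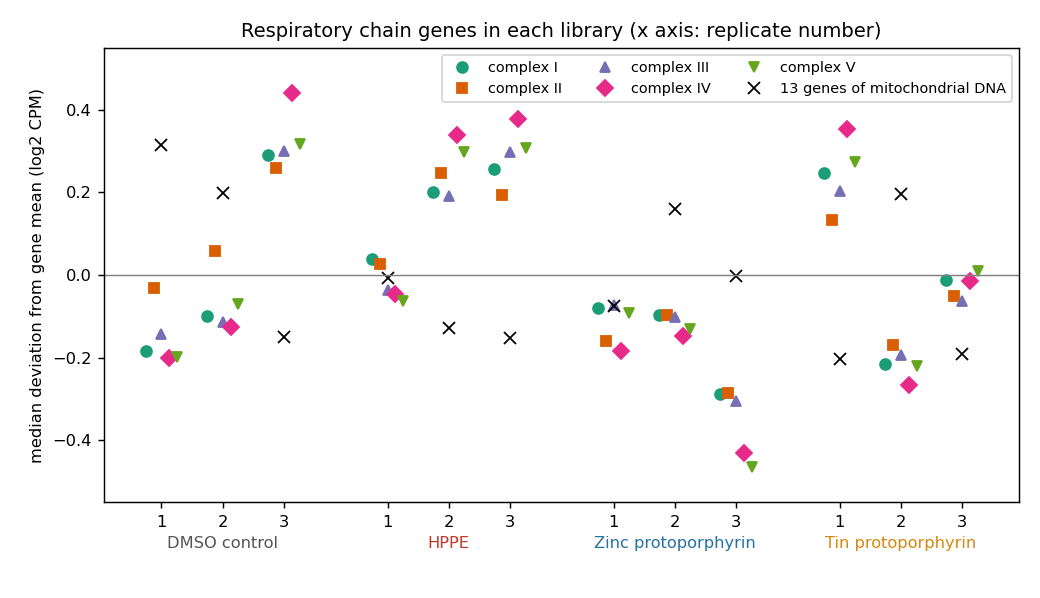
Median deviation of the subunits of each complex from each gene's own mean over 12 libraries (y axis, log2 CPM), for each library by group and replicate (x axis); crosses give the 13 protein-coding genes of mitochondrial DNA. The 5 complexes mostly move together from library to library. Their signs are mixed in DMSO replicate 2, HPPE replicate 1 and tin protoporphyrin replicate 3. Single libraries of the DMSO control ran from -0.19 to 0.31 in the median over all subunits. The median difference between HPPE and zinc protoporphyrin was 0.41, but it compares groups of 3 libraries and is not the same measure.

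All 5 complexes took part. In DMSO replicate 3 the medians ran from 0.26 for complex II to 0.44 for complex IV, and in zinc protoporphyrin replicate 3 from -0.28 for complex II to -0.46 for complex V. The 13 genes of mitochondrial DNA went the other way in several libraries, with medians of 0.32 in DMSO replicate 1, -0.15 in DMSO replicate 3, -0.20 in tin protoporphyrin replicate 1 and 0.20 in tin protoporphyrin replicate 2. The same libraries also differed by gene length: over all tested genes, deviation and transcript length had a Spearman correlation of -0.34 in tin protoporphyrin replicate 1 and of 0.30 in DMSO replicate 1, with the other libraries in between. The part of this length trend in the results below was not tested apart from the alternatives given there. HPPE replicates 2 and 3 were the most alike of all same-group pairs, with a chi-square per degree of freedom of 1.11 over 14245 genes, against 1.49 to 17.3 in the other pairs. They differed by slightly more than sampling noise and were kept as 2 libraries; values with both summed as 1 library are given beside the result that depends on it.

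**Figure D2:**
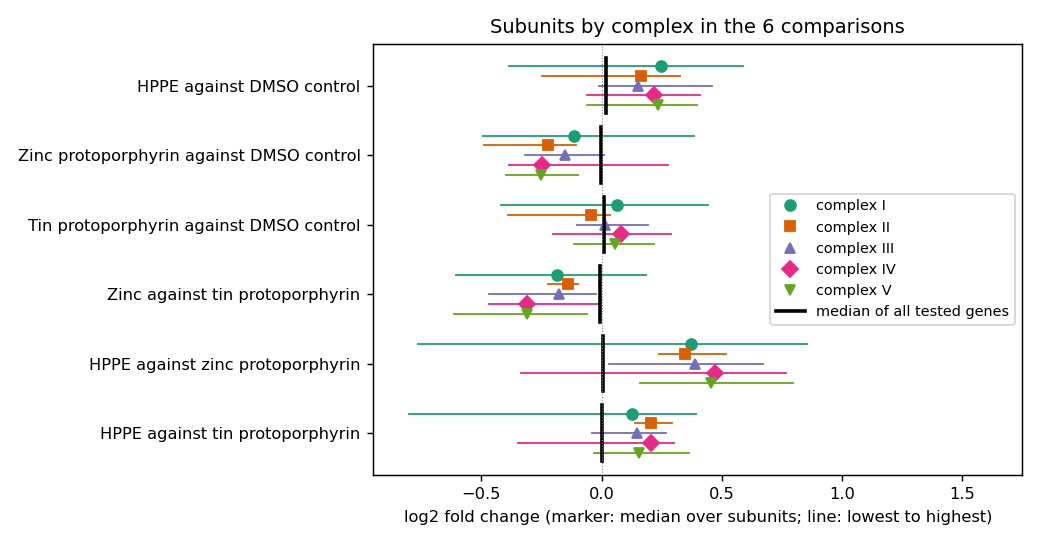
Log2 fold change (x axis) of the subunits of each complex in the 6 comparisons (y axis): markers are medians over subunits, lines run from the lowest to the highest subunit, and black bars are the median of all 16366 tested genes. The medians of the 5 complexes lie furthest from those of all genes in HPPE against zinc protoporphyrin, between 0.35 and 0.47.

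Against the DMSO control, HPPE gave 0 called subunits in edgeR's quasi-likelihood test with Benjamini-Hochberg adjustment (adjusted p under 0.05 over 16366 genes) and 0 in DESeq2, while 4.04% of all tested genes were called. The median log2 fold change of the subunits was 0.23 against 0.02 for all tested genes, and 70 of 79 were positive. An unadjusted edgeR p under 0.05 was found for 8 subunits (10.1%, against 17.7% of all genes), all of them positive. The median was 0.12 without DMSO replicate 1, 0.35 without DMSO replicate 3 and 0.15 under a correction for transcript length and GC content. In bulk samples such as these, fewer cells that express a gene and less RNA per cell cannot be told apart. The smallest adjusted p was 0.143. The groups did not overlap, with HPPE higher, in 3 subunits (3.80%, against 11.9% of all genes) and, with HPPE lower, in 1 (against 9.44%).

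NDUFS6, which carries a zinc site of complex I, stood at 18.1, 18.6 and 23.6 CPM in the 3 control libraries and at 23.5, 29.8 and 28.5 CPM with HPPE. The lowest HPPE library fell just under the highest control. The log2 fold change was 0.50 ± 0.18 (SE, edgeR adjusted p 0.143). NDUFA6, a complex I subunit of the LYR family, was at 6.61, 7.79 and 7.66 CPM in the control and at 8.25, 13.4 and 11.1 CPM with HPPE, without overlap (log2 fold change 0.59 ± 0.21, edgeR adjusted p 0.150). NDUFC2, a small membrane subunit of complex I, was at 10.7, 9.37 and 15.95 CPM and at 13.4, 16.8 and 15.5 CPM (0.48 ± 0.18, edgeR adjusted p 0.149); control replicate 3 lay inside the HPPE range. SDHC was at 46.7, 46.5 and 40.8 CPM in the control and at 49.7, 57.8 and 56.7 CPM with HPPE, again without overlap (0.26 ± 0.10, edgeR adjusted p 0.162). None of these differences passed the threshold. SDHA lay lower in all 3 HPPE libraries than in the control by the smallest of margins, at 6.63, 8.27 and 8.23 CPM against 8.60, 8.32 and 12.8 CPM (log2 fold change -0.25 ± 0.18, edgeR adjusted p 0.510). Without DMSO replicate 3, NDUFA12, NDUFC1 and NDUFC2 were called higher, as were 3.33% of all tested genes in that fit.

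Zinc protoporphyrin against the control also gave 0 called subunits by edgeR and by DESeq2, at a background of 2.25% of all genes. The median log2 fold change was -0.19 against -0.00 for all genes, and 14 of 79 subunits were positive. The median was -0.29 without DMSO replicate 1, -0.08 without DMSO replicate 3, -0.09 without zinc protoporphyrin replicate 3 and -0.10 without the 3 shallow libraries. An unadjusted edgeR p under 0.05 was found for 5 subunits (6.33%, against 18.6% of all genes), all negative. The smallest edgeR adjusted p was 0.186. All 18 subunits of complex V and all 4 of complex II were negative. The groups did not overlap in 10 subunits with zinc protoporphyrin lower (12.7%, against 10.4% of all genes) and in 0 with zinc protoporphyrin higher (against 11.6%). UQCRB, a ubiquinone-binding subunit of complex III, was at 44.6, 39.6 and 52.3 CPM in the control and at 36.9, 35.7 and 34.3 CPM with zinc protoporphyrin (log2 fold change -0.32 ± 0.13, edgeR adjusted p 0.186). COX7A2L, which helps to join complexes III and IV into supercomplexes, was at 70.5, 76.4 and 85.5 CPM against 61.7, 69.0 and 62.8 CPM (-0.23 ± 0.10, edgeR adjusted p 0.256). In both genes the groups were separate, and DMSO replicate 3 was the highest library. SDHA was at 7.53, 5.76 and 6.86 CPM with zinc protoporphyrin, below every control library (-0.49 ± 0.19, edgeR adjusted p 0.191).

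Tin protoporphyrin against the control likewise gave 0 called subunits by edgeR and by DESeq2, at a background of 2.28%. In edgeR, 1 subunit had an unadjusted p under 0.05 (1.27%, against 14.7% of all genes), and the smallest adjusted p was 0.323. The median log2 fold change was 0.06 against 0.01 for all genes, with 61 of 79 positive. The sign of this median rested on single libraries: it was -0.04 without DMSO replicate 1 and -0.06 without tin protoporphyrin replicate 1, against 0.02 without DMSO replicate 2, 0.17 without DMSO replicate 3 and 0.19 without tin protoporphyrin replicate 2. The gene with the unadjusted p under 0.05 was SDHA, at 6.45, 6.98 and 7.38 CPM, below all 3 control libraries (log2 fold change -0.39 ± 0.18, edgeR adjusted p 0.323). Without overlap, 1 subunit was higher (against 10.3% of all genes) and 1 lower (against 7.6%). COX7A2L was at 72.7, 57.8 and 67.9 CPM (-0.20 ± 0.10, edgeR adjusted p 0.358), with 1 library inside the control range. SDHA was thus lower than all control libraries in each treated group; the 3 comparisons share their control libraries and are not independent.

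The 2 protoporphyrins, which differ in the metal, were compared at the same dose and time. Zinc against tin protoporphyrin gave 0 called subunits by edgeR, and 1 gene of all tested (0.00611%) passed. DESeq2 called 0 subunits as well. Still, 74 of 79 subunits were lower with zinc protoporphyrin, and the median log2 fold change was -0.22 against -0.01 for all genes. An unadjusted edgeR p under 0.05 was found for 17 subunits (21.5%, against 13.3% of all genes), all with zinc protoporphyrin lower. The median was -0.08 without tin protoporphyrin replicate 1, -0.36 without tin protoporphyrin replicate 2 and -0.14 without zinc protoporphyrin replicate 3. The groups did not overlap in 8 subunits with zinc protoporphyrin lower (10.1%, against 6.38% of all genes) and in 0 with it higher (against 6.56%). The tin protoporphyrin libraries spread widely, and the 95% interval of a subunit reached 0.37 (log2, median over subunits) to either side of its value, so smaller differences between the metals could not be resolved for most subunits.

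ATP5MG, the g subunit of the ATP synthase membrane part, was at 6.02, 8.77 and 7.82 CPM with zinc protoporphyrin and at 15.1, 9.56 and 12.3 CPM with tin protoporphyrin, without overlap. Its log2 fold change was -0.61 (95% interval -1.03 to -0.20, edgeR adjusted p 0.353). NDUFB3, in the membrane arm of complex I, was at 9.04, 8.64 and 7.34 CPM and at 16.5, 8.44 and 12.1 CPM (-0.61, interval -1.13 to -0.08, edgeR adjusted p 0.353). Here tin protoporphyrin replicate 2 lay inside the zinc range. NDUFA1, a small subunit needed to build complex I, was at 12.8, 13.4 and 10.5 CPM and at 17.8, 15.2 and 15.03 CPM, without overlap (-0.42, interval -0.75 to -0.09, edgeR adjusted p 0.353). Without tin protoporphyrin replicate 2, 9 of 79 subunits were called lower with zinc protoporphyrin, as were 4% of all tested genes in that fit.

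HPPE against tin protoporphyrin also gave 0 called subunits by edgeR and by DESeq2, at a background of 1.45%. The median log2 fold change was 0.14 against 0.00 for all genes, and 68 of 79 were positive. An unadjusted edgeR p under 0.05 was found for 3 subunits (3.80%, against 13.1% of all genes). The median was 0.03 without tin protoporphyrin replicate 2, 0.31 without tin protoporphyrin replicate 1, 0.09 without HPPE replicate 2 and 0.25 without HPPE replicate 1. Without overlap, 1 subunit was higher (against 9.81% of all genes) and 2 were lower (against 10.1%). SDHC was the 1 that was higher, at 49.7, 57.8 and 56.7 CPM with HPPE against 49.0, 45.8 and 44.8 CPM with tin protoporphyrin (log2 fold change 0.23, 95% interval 0.03 to 0.42, edgeR adjusted p 0.296). SDHB had a log2 fold change of 0.29 (interval 0.01 to 0.58, edgeR adjusted p 0.375). COX7A2L was at 71.7, 80.4 and 82.3 CPM with HPPE, and differed from tin protoporphyrin by 0.24 (interval 0.03 to 0.44, edgeR adjusted p 0.304), with 1 tin protoporphyrin library inside the HPPE range.

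HPPE against zinc protoporphyrin was the comparison in which subunits were called. HPPE was higher in 13 of 79 subunits and lower in 0, while 6.44% of all tested genes were called higher and 6.26% lower. The share called higher differed by coding length. Of all tested genes, 54 of 263 under 300 coding nucleotides were called higher, against 453 of 9062 at 1000 or more. Most subunits are short, and their counts by length are given below. The 13 came from every complex: NDUFB3, NDUFB1, NDUFA12, NDUFB4, NDUFA1 and NDUFB11 of complex I, SDHB and SDHC of complex II, UQCRB of complex III, COX6C and COX5A of complex IV, and ATP5MG and ATP5MC3 of complex V. The median log2 fold change was 0.41 against 0.01 for all genes. It was positive for 73 of 79 subunits. An unadjusted edgeR p under 0.05 was found for 44 subunits (55.7%, against 32.2% of all genes), all with HPPE higher. The groups did not overlap in 37 subunits with HPPE higher (46.8%, against 19% of all genes) and in 1 with HPPE lower (against 17.7%). Since neither compound gave a called subunit against the control, these calls describe the distance between the 2 treated groups.

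The 13 calls depended on single libraries. There were 0 called subunits without HPPE replicate 2, without HPPE replicate 3 and without zinc protoporphyrin replicate 3, in fits that called 0.643%, 1.14% and 0.596% of all tested genes higher. It was 5 without zinc protoporphyrin replicate 2 (2.99% of all genes), 6 without zinc protoporphyrin replicate 1 (4.27%) and 22 without HPPE replicate 1 (6.1%). With HPPE replicates 2 and 3 summed as 1 library 0 subunits were called (1.49% of all genes), and likewise without the 3 shallow libraries (1.03%). Leaving out a library of a group that was not compared moved the count as well, to 9 without tin protoporphyrin replicate 3 (4.14%), to 21 without DMSO replicate 3 (8.92%), to 24 without tin protoporphyrin replicate 1 (9.09%) and to 26 without tin protoporphyrin replicate 2 (10.6%). The calls over all genes thus moved with those of the subunits in most of these fits, HPPE replicate 1 being the exception. With each library left out in turn, the median log2 fold change of the subunits stayed between 0.29 and 0.50.

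Promoter sequence is shown for 4 of the called subunits, because each holds a match to a known regulator of this gene family and the genes stood together in this comparison. The sequences are from RefSeq (GRCh38.p14), give the 250 bases before the start that RefSeq places 5′ to 3′ on the coding strand, and have the matches in capitals. GENCODE 29, used for gene positions here, starts these genes further upstream, so that 27 bases of the NDUFB4 window, 73 of that of NDUFA12, 138 of that of SDHB and all 250 of that of NDUFA1 lie inside the gene as it places it. NDUFB4 (chr3:120596086-120596335, plus strand) holds the NRF1 motif (GCGCA, any base, then GCGC) at 2 places, and NDUFA12 (chr12:95003698-95003947, minus strand) at 1. NDUFA1 (chrX:119871582-119871831, plus strand) and SDHB (chr1:17054033-17054282, minus strand) each hold the GABP or ETS motif, letters CCGGAAG, which in NDUFA1 is read on the opposite strand.
NDUFB4: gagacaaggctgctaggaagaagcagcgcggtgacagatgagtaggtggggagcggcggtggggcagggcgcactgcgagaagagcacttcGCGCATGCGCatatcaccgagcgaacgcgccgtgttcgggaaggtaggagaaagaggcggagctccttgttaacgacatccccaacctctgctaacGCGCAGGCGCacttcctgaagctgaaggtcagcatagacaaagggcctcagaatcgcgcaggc
NDUFA12: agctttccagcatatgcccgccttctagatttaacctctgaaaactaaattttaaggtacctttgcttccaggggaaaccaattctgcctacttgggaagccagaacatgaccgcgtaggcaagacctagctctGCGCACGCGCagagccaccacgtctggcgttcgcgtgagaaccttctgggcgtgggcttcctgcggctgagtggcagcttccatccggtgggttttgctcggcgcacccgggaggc
NDUFA1: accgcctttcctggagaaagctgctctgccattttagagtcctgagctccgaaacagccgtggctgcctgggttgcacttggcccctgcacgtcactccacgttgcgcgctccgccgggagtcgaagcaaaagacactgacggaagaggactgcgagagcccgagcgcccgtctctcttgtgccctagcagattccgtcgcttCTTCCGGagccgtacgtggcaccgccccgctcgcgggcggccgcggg
SDHB: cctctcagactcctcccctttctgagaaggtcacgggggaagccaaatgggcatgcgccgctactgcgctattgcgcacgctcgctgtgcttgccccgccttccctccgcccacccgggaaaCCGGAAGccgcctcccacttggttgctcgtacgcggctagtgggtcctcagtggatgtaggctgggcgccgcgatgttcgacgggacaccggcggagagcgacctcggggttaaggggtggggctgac

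Of the 79 subunits, 64 had a promoter in this table. Over the 300 bases from 250 before to 50 after the start, on both strands, the NRF1 motif was found in 25.0% of subunit promoters against 5.78% of all 35116 promoters, and the CCGGAAG motif in 31.2% against 10.3%. The YY1 motif, letters AAGATGGC, was found in 15.6% against 2.89%. TGACNNNGC, the core of the antioxidant response element to which NRF2 binds, was found in 15.6% against 13.3%. Each motif was searched on its own, and matches to different motifs may overlap. Among the 9 called subunits with a promoter, 2 held the NRF1 motif, 3 CCGGAAG, 1 AAGATGGC and 1 TGACNNNGC. The shares in the other 55 subunit promoters were 25.5%, 30.9%, 16.4% and 16.4%, and the values of the called subunits rest on 1 to 3 genes each. A match describes letters in the window, not a bound site.

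In complex I, the 6 called subunits were small accessory proteins around the core. NDUFB3 (ENSG00000119013.9, chr2:201071433-201085750 in GRCh38) was at 13.3, 16.8 and 13.3 CPM with HPPE and at 9.04, 8.64 and 7.34 CPM with zinc protoporphyrin, a 1.81-fold difference (log2 fold change 0.85 ± 0.25, edgeR adjusted p 0.0373). NDUFB1, another membrane-arm subunit, was at 14.01, 14.9 and 20.6 CPM against 12.1, 9.94 and 6.98 CPM (0.84 ± 0.26, edgeR adjusted p 0.0415). Both groups were separate in each gene. For NDUFB3 the control libraries, at 10.3, 9.11 and 17.9 CPM, spanned the gap, with replicate 3 above all HPPE libraries. NDUFB1 stood at 10.7, 13.2 and 15.3 CPM in the control, also across both ranges.

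NDUFB4, whose promoter is given above, was at 27.3, 31.2 and 34.8 CPM with HPPE and at 21.8, 19.9 and 17.2 CPM with zinc protoporphyrin (log2 fold change 0.69 ± 0.18, edgeR adjusted p 0.0232). NDUFA12, an accessory subunit of the matrix arm, was at 14.6, 20.3 and 18.4 CPM against 12.8, 9.68 and 11.2 CPM (0.72 ± 0.21, edgeR adjusted p 0.0366). Both genes were separate between the groups, and both had their highest value of all 12 libraries in DMSO replicate 3, at 36.4 and 21.1 CPM. NDUFA1 was at 18.1, 17.6 and 17.1 CPM with HPPE, close together, and at 12.8, 13.4 and 10.5 CPM with zinc protoporphyrin (0.56 ± 0.16, edgeR adjusted p 0.0329). NDUFB11, an X-linked membrane subunit, was at 48.1, 53.4 and 57.9 CPM against 31.6, 45.1 and 35.6 CPM (0.44 ± 0.13, edgeR adjusted p 0.0429). The strand setting of the counting is not given in the sources used here, and RNF113A and RBM10 lie on the other strand over 44.5% of the exonic bases of NDUFA1 and 44.9% of those of NDUFB11.

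Core subunits of complex I, among them those that carry the flavin and the iron-sulfur clusters, gave no call. NDUFS8 had a log2 fold change of 0.41 ± 0.15 (edgeR adjusted p 0.0810) and NDUFS3 one of 0.38 ± 0.18 (edgeR adjusted p 0.158). NDUFV1, which binds NADH, was at 84.3, 93.7 and 87.7 CPM against 92.6, 76.0 and 70.5 CPM (0.20 ± 0.12, edgeR adjusted p 0.245). The groups overlapped in NDUFS3 and NDUFV1 and were separate in NDUFS8. NDUFS1, the largest subunit and the most counted gene of the complex, went the other way, at 152.9, 130.9 and 143.4 CPM with HPPE and 139.3, 174.9 and 167.8 CPM with zinc protoporphyrin (-0.20 ± 0.11, edgeR adjusted p 0.241). Its sign turned to 0.09 under a correction for transcript length and GC content. NDUFV2, with 195 counts in all, had the most negative value, -0.76 ± 0.42 (edgeR adjusted p 0.219), from 1.25, 2.56 and 0.633 CPM against 0.753, 2.22 and 3.97 CPM, which overlap. NDUFA9, a matrix-arm subunit, differed by -0.26 ± 0.15 (edgeR adjusted p 0.241), and NDUFA8 by 0.68 ± 0.23 (edgeR adjusted p 0.0600). NDUFS7 was at 11.7 ± 1.63 CPM with HPPE and 13.2 ± 4.34 CPM with zinc protoporphyrin (SD, n = 3); its fitted log2 fold change, 0.03 ± 0.22 (edgeR adjusted p 0.947), has the opposite sign to its means.

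**Figure D3:**
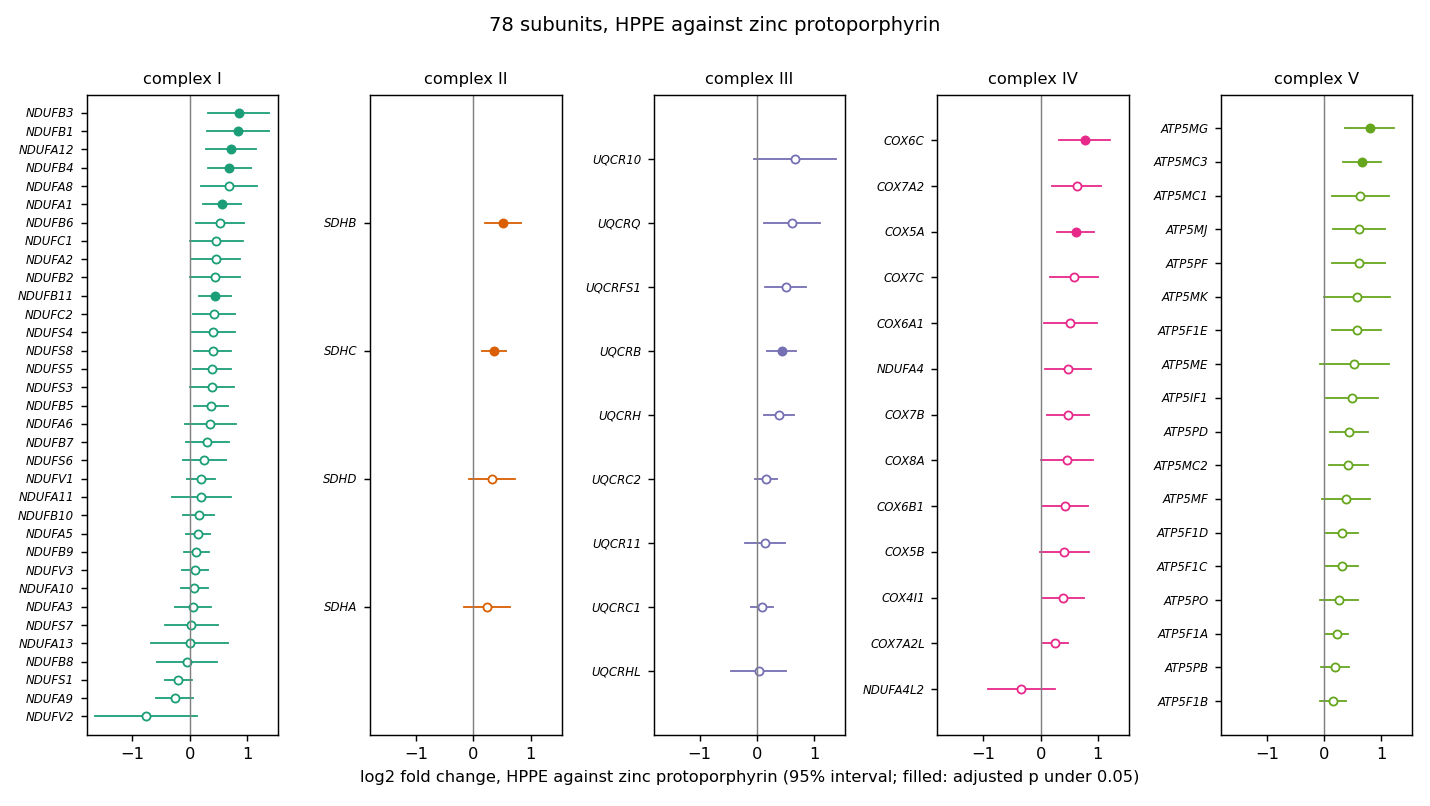
Log2 fold change of HPPE against zinc protoporphyrin (x axis) for 78 of the 79 subunits, by complex, with 95% intervals from the edgeR fit; filled markers are the 13 called subunits. All fitted values of complexes II, III and V lie above 0, and the negative values belong to 5 subunits of complex I and to NDUFA4L2.

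All 4 subunits of complex II were positive and 2 were called. SDHB (ENSG00000117118.10, chr1:17018722-17054170), the iron-sulfur subunit, was at 35.9, 35.9 and 44.3 CPM with HPPE and at 27.9, 29.2 and 23.7 CPM with zinc protoporphyrin (log2 fold change 0.52 ± 0.15, edgeR adjusted p 0.0352). SDHC, a membrane anchor that holds heme b with SDHD, was at 49.7, 57.8 and 56.7 CPM against 35.4, 44.0 and 43.3 CPM (0.37 ± 0.10, edgeR adjusted p 0.0268). Both were separate between the groups. The control values of SDHB, at 27.3, 29.3 and 40.2 CPM, reached from the zinc protoporphyrin range into that of HPPE, and those of SDHC lay below every HPPE library. SDHD differed by 0.32 ± 0.19 (edgeR adjusted p 0.253) and SDHA by 0.24 ± 0.19 (edgeR adjusted p 0.407), with overlap in both.

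The fitted log2 fold change was positive in all 9 subunits of complex III, and 1 was called. UQCRB was at 41.3, 50.7 and 52.2 CPM with HPPE against 36.9, 35.7 and 34.3 CPM with zinc protoporphyrin (log2 fold change 0.43 ± 0.12, edgeR adjusted p 0.0322). The zinc protoporphyrin libraries were close together and lay below all 9 others. The Rieske iron-sulfur protein UQCRFS1 was separate between the groups too, at 22.3, 23.3 and 25.6 CPM against 21.8, 15.2 and 16.4 CPM, without a call (0.50 ± 0.17, edgeR adjusted p 0.0625). UQCRH differed by 0.39 ± 0.13 (edgeR adjusted p 0.0531) and UQCRQ by 0.62 ± 0.23 (edgeR adjusted p 0.0808). The large core proteins differed little: UQCRC1 was at 84.5 ± 3.76 CPM against 80.1 ± 4.64 CPM (SD, n = 3), a log2 fold change of 0.09 ± 0.09 (edgeR adjusted p 0.501) that became -0.08 under the length and GC correction, and UQCRC2 differed by 0.16 ± 0.09 (edgeR adjusted p 0.222). UQCRHL had a fitted log2 fold change of 0.03 ± 0.23 (edgeR adjusted p 0.948), although its mean was lower with HPPE, at 7.38, 8.50 and 9.18 CPM against 12.8, 8.24 and 6.62 CPM with zinc protoporphyrin. The highest of these values is that of the shallow zinc protoporphyrin replicate 1, so its direction is not determined.

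In complex IV, 12 of 13 subunits were positive and 2 were called. COX5A (ENSG00000178741.12, chr15:74919791-74938168), which sits on the matrix side of the enzyme, was at 40.0, 47.9 and 44.3 CPM with HPPE and at 25.6, 32.3 and 26.5 CPM with zinc protoporphyrin, a 1.53-fold difference (log2 fold change 0.61 ± 0.15, edgeR adjusted p 0.0200). COX6C, a single-span membrane subunit, was at 20.9, 29.4 and 39.0 CPM against 15.8, 18.2 and 15.8 CPM (0.77 ± 0.21, edgeR adjusted p 0.0305). COX6C had the wider HPPE spread, and its lowest HPPE library was close above the zinc protoporphyrin range. COX6C has 17 pseudogene rows with its symbol, so part of its reads may have been lost or shared in counting. COX7A2, the common isoform of subunit 7A, missed the threshold at an edgeR adjusted p of 0.05004 with a log2 fold change of 0.63 ± 0.20, from 47.8, 62.4 and 74.7 CPM against 45.2, 39.8 and 35.7 CPM; DESeq2 called it and left out NDUFA1. COX4I1, the subunit at which ATP acts on the enzyme, was at 119.4, 140.3 and 159.3 CPM against 127.2, 108.1 and 91.1 CPM (0.39 ± 0.17, edgeR adjusted p 0.126). The groups overlapped in COX4I1 and were separate in COX7A2. COX5B differed by 0.41 ± 0.20, COX6A1 by 0.52 ± 0.22, COX6B1 by 0.43 ± 0.19, COX8A by 0.46 ± 0.22, NDUFA4 by 0.48 ± 0.19 and COX7A2L by 0.26 ± 0.10. The edgeR adjusted p-values of these 6 lay between 0.0904 and 0.169. NDUFA4L2 was the exception, at 2.25, 2.45 and 2.53 CPM with HPPE, below the 3.01, 3.40 and 2.65 CPM of zinc protoporphyrin (-0.33 ± 0.28, edgeR adjusted p 0.425).

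All 18 genes of complex V were positive and 2 were called. ATP5MG was at 13.6, 15.1 and 12.4 CPM with HPPE against 6.02, 8.77 and 7.82 CPM with zinc protoporphyrin, a 1.73-fold difference (log2 fold change 0.79 ± 0.20, edgeR adjusted p 0.0221). ATP5MC3 (ENSG00000154518.10, chr2:175176258-175184607), 1 of 3 genes for the c subunit that forms the rotating ring, was at 55.4, 66.4 and 73.5 CPM against 39.1, 42.9 and 39.1 CPM (0.66 ± 0.16, edgeR adjusted p 0.0172, the smallest of all subunits). In both the groups were well apart. The other genes for the c subunit, whose mature protein is the same, leaned the same way: ATP5MC1 differed by 0.63 ± 0.23 (edgeR adjusted p 0.0778) and ATP5MC2 by 0.42 ± 0.16 (edgeR adjusted p 0.0834). ATP5IF1, which encodes the inhibitor of ATP hydrolysis by the enzyme, differed by 0.48 ± 0.21 (edgeR adjusted p 0.135).

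The subunits of the catalytic head of ATP synthase had log2 fold changes between 0.16 and 0.56, and none was called. ATP5F1B, the beta subunit and the most counted of all 79 genes, was at 402.8, 423.9 and 443.3 CPM with HPPE and at 413.4, 381.4 and 348.1 CPM with zinc protoporphyrin (log2 fold change 0.16 ± 0.11, 95% interval -0.07 to 0.38, edgeR adjusted p 0.323). ATP5F1A, the alpha subunit, was at 332.3, 375.2 and 380.9 CPM against 325.3, 315.2 and 296.7 CPM (0.22 ± 0.09, edgeR adjusted p 0.122). The gamma subunit ATP5F1C differed by 0.30 ± 0.13 (edgeR adjusted p 0.128), the delta subunit ATP5F1D by 0.30 ± 0.14 (edgeR adjusted p 0.141) and the epsilon subunit ATP5F1E by 0.56 ± 0.20 (edgeR adjusted p 0.0706). Of the stalk that holds the head, ATP5PB differed by 0.19 ± 0.12 (edgeR adjusted p 0.264) and ATP5PO by 0.26 ± 0.16 (edgeR adjusted p 0.258). ATP5PF, also of the stalk, was at 32.1, 38.4 and 44.3 CPM with HPPE against 24.1, 27.9 and 22.1 CPM, without overlap and without a call. ATP5PD, another stalk gene, was at 30.1, 45.5 and 52.9 CPM against 27.1, 33.5 and 29.8 CPM, with overlap and without a call. The upper bounds of the 95% intervals for ATP5F1B and ATP5F1A, 0.38 and 0.42, lie below the fitted values of ATP5MG, ATP5MC3, COX5A and NDUFB4. Those genes were picked from the called subunits and have errors of their own. Whether they differ from the genes of the head was not tested.

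**Figure D4:**
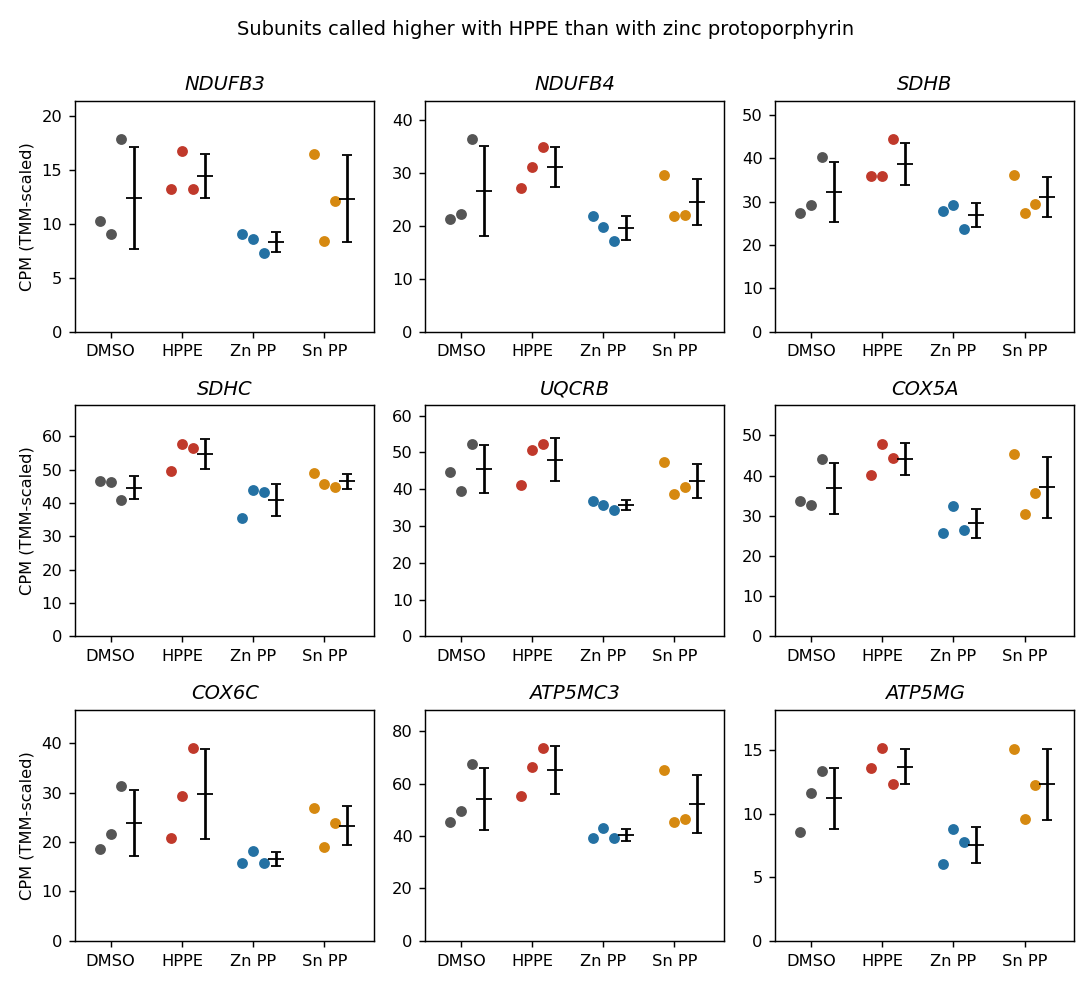
CPM (y axis, TMM-scaled, from 0) of 9 of the 13 called subunits in each library (points) of the 4 groups (x axis), with the mean and SD of 3 libraries as bars; Zn PP and Sn PP are zinc and tin protoporphyrin. HPPE and zinc protoporphyrin are separate in every panel, while 1 library of the DMSO control or of tin protoporphyrin often reaches the HPPE range, as in NDUFB3 (17.9 CPM in DMSO replicate 3 and 16.5 CPM in tin protoporphyrin replicate 1).

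Size and difference went together among the subunits. Their median coding length was 387 nucleotides, against 1431 for all tested genes with a coding length, and 93.7% of them were shorter than that. In HPPE against zinc protoporphyrin, subunits under 300 nucleotides had a median log2 fold change of 0.48 against 0.41 for all tested genes of that length. From 300 to under 500 nucleotides it was 0.43 against 0.32, from 500 to under 1000 it was 0.34 against 0.18, and at 1000 or more it was 0.16 against -0.02. The medians of all tested genes were thus positive in the 3 shorter classes, and the subunits' median lay above that of all genes in each of the 4; whether it does so beyond the spread between libraries was not tested. Under 300 nucleotides, 3 of 22 subunits were called higher, against 54 of 263 tested genes. From 300 to under 500 it was 8 of 29 against 148 of 806. From 500 to under 1000 it was 2 of 18 against 345 of 2867, and at 1000 or more 0 of 10 against 453 of 9062. Whether subunits were called more often than genes of like length was not tested. Across genes, the Spearman correlation of the log2 fold change with coding length was -0.47 over 79 subunits and -0.42 over 12998 genes, which are not independent replicates and share the same libraries. A correction of each library for transcript length and GC content left 14 subunits called, 11 of them among the 13. In that fit 7.39% of all tested genes were called higher. ATP5MC3 and NDUFB11 were lost under it, and NDUFA8, UQCRFS1 and UQCRH were gained. Transcript and coding length can differ widely, as in SDHC with 13566 and 507 nucleotides. The correction therefore does not test the trend with coding length.

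**Figure D5:**
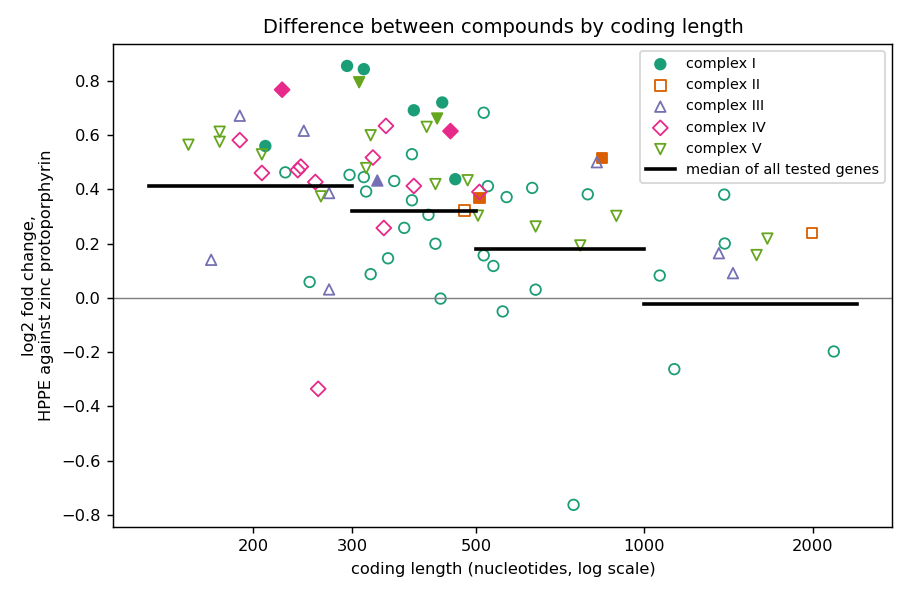
Log2 fold change of HPPE against zinc protoporphyrin (y axis) by coding length in nucleotides (x axis, log scale) for the 79 subunits, filled where called; black bars are the medians of all tested genes in 4 length classes. Both the subunits and the medians of all genes fall with length, from 0.41 under 300 nucleotides to -0.02 at 1000 or more for all genes.

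The main pattern of difference between libraries of 1 group was also entered into the model as a covariate. Computed as principal component 1 of deviations from group means over 10972 genes, this axis held 52.7% of their variance; since it comes from the same libraries' residuals, it narrows the errors by construction. With it, HPPE against zinc protoporphyrin gave 55 subunits called higher and 1, NDUFS1, lower, at 18.4% of all genes called higher and 16.4% lower. HPPE against the control gave 17 called higher (8.85% of all genes called higher). Zinc protoporphyrin against the control gave 30 lower (11.7% of all genes lower), and tin protoporphyrin against the control 1 lower, COX7A2L (5.79% lower). Between the other treated groups, zinc against tin protoporphyrin gave 25 called lower (6.9% lower) and HPPE against tin protoporphyrin 20 called higher (8.29% higher). The median over subunits was 0.37 in HPPE against zinc protoporphyrin with the covariate and 0.41 without it. Because the axis is built from deviations from group means, it can hardly move a difference between groups. The like sizes are therefore no separate test.

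Other genes of the pathway, listed for their role, were compared in the same fit. Against the control, none of the assembly factors, carriers, regulators or mitochondrial genes on these lists was called by edgeR for any compound. With HPPE, an unadjusted edgeR p under 0.05 was found for 5 of 16 assembly factors of complex I (31.25%), all positive. It was found for 4 of 23 of complex IV (17.4%), also all positive, against 17.7% of all tested genes. Between HPPE and zinc protoporphyrin, HPPE was higher in 4 of 16 assembly factors of complex I, in 0 of 4 of complex II, in 1 of 8 of complex III, in 2 of 23 of complex IV and in 0 of 4 of ATP synthase, and none was lower. The share over all tested genes was 6.44%, and at list sizes of 4 to 23 counts of 1 or 2 are near that background. NDUFAF4, a complex I assembly factor, was at 26.6, 29.1 and 33.6 CPM with HPPE against 15.8, 20.4 and 16.6 CPM with zinc protoporphyrin (log2 fold change 0.69 ± 0.18, edgeR adjusted p 0.0239); the other 3 of complex I were TIMMDC1, DMAC1 and TMEM126B. UQCC2 was the 1 of complex III, and CMC1 and COX14 those of complex IV. Of 6 subunits and carriers outside the symbol rule, 1 was called: CYCS, cytochrome c, which carries electrons from complex III to complex IV, at 137.7, 136.2 and 133.9 CPM with HPPE against 100.9, 105.5 and 85.5 CPM (0.49 ± 0.13, edgeR adjusted p 0.0278).

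The 13 subunit genes of mitochondrial DNA did not share this direction. Their median log2 fold change was -0.24 in HPPE against the control, with 0 of 13 positive. In HPPE against zinc protoporphyrin the median was -0.14, with 4 of 13 positive. None was called in any of the 6 comparisons. An unadjusted edgeR p under 0.05 was found for 2 genes in HPPE against the control (15.4%, against 17.7% of all genes). In HPPE against zinc protoporphyrin it was found for 4 genes (30.8%, against 32.2%). MT-ND6 was at 2132, 1724 and 1022 CPM in the control and at 1443, 1043 and 943.2 CPM with HPPE (log2 fold change -0.51 ± 0.22, edgeR adjusted p 0.232), with overlap. Among 10 tested transcriptional regulators of the nuclear or the mitochondrial genes edgeR called none in any comparison. The list held 11 genes, but PPARGC1A, at 0.753 CPM or less, did not pass the filter on low counts. In HPPE against zinc protoporphyrin, 3 of the 10 had an unadjusted edgeR p under 0.05 (30%, against 32.2% of all genes). TFAM, which packages and transcribes mitochondrial DNA, was at 101.3, 94.0 and 92.5 CPM with HPPE and 69.3, 95.3 and 88.4 CPM with zinc protoporphyrin (0.14 ± 0.09, edgeR adjusted p 0.281). NRF1 differed by 0.11 ± 0.13 (edgeR adjusted p 0.601). GABPB1, a partner of the ETS factor GABPA, was at 21.4, 21.9 and 15.95 CPM in the control and at 26.1, 30.8 and 27.5 CPM with HPPE, without overlap and without a call (0.45 ± 0.14, edgeR adjusted p 0.0975).

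Neither of the 2 noncoding rows was called in any of the 6 comparisons. NDUFA6-DT, which starts next to NDUFA6 and runs the other way, was at 2.38, 2.51 and 1.91 CPM in the control and at 0.750, 1.98 and 0.950 CPM with HPPE, with overlap. NDUFV2-AS1 was at 1.32, 0.660 and 0.638 CPM in the control, at 1.38, 1.28 and 2.53 CPM with HPPE, at 0, 1.57 and 1.80 CPM with zinc protoporphyrin and at 2.46, 2.25 and 1.39 CPM with tin protoporphyrin. Tin protoporphyrin did not overlap the control (edgeR adjusted p 0.262), and HPPE overlapped it (log2 fold change 0.68 ± 0.50, edgeR adjusted p 0.501). Both are close to the limit of these libraries and, with the strand setting not given, cannot be told apart with certainty from the genes they overlap.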

How the data were processed

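RNA was measured in 12 SH-SY5Y libraries. The values in the deposited table are raw gene counts, whole numbers that were not normalized; per the submitters' processing notes, fastp 0.21.1, STAR 2.7.7a, featureCounts and the build GRCh38 were used, and the annotation and strand setting are not given in the sources used here. Of 60710 rows, 60481 matched a symbol. Here, genes were filtered with filterByExpr (16366 genes, 99.6% of counts), libraries scaled by TMM, and 1 model with a mean per group fitted to all 12 libraries with edgeR 4.0.16 (R 4.3.3; glmQLFit, robust, and glmQLFTest, two-sided, Benjamini-Hochberg over all tested genes, called at an adjusted p under 0.05). The biological coefficient of variation was 0.0913. Errors of fold changes are SE from the F statistic, and those of CPM are SD. Library totals ran from 1337028 to 9145399; precision is lowest in the shallow libraries and for genes near 1 CPM. Deviations of log2 CPM used a prior count of 2.

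Named genes are the 3 largest called changes each way per comparison, core subunits, isoform pairs and the most counted gene of each complex; other genes that are named were chosen after their values were seen. A few gene results are left out of the text. The members and all lists were chosen with earlier results of these data known. Gene positions, coding lengths, GC content and overlaps are from GENCODE 29, which need not be the authors' annotation; 16185 tested genes (98.9%) had a length. Alternatives were RLE factors, unscaled libraries, no filter, 1 CPM in 3 libraries, DESeq2 1.42.0, compared groups only, the replicate number as a block, a library axis, a length and GC correction (lowess, span 0.3), removal of the 3 shallow libraries and of each library in turn, and, chosen after seeing the data, HPPE replicates 2 and 3 summed. The procedures were tested on simulated counts, drawn independently for each library. The simulation held no shared library axis and no length trend, so it does not cover these features of the data.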

Additional observations from a re-analysis of the deposited data

How the results depend on the processing

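The subunits called higher in HPPE against zinc protoporphyrin, 13 in the fit as reported, numbered 13 with RLE factors, unscaled library sizes, a filter of 1 CPM in 3 libraries and DESeq2 (12 of them shared), and 14 with the length and GC correction. All tested genes were called higher at 6.44% in the fit as reported, and at 5.81% to 7.39% in these. The subunits numbered 42 with no filter beyond 1 count (4.62% of all genes), 47 with the compared groups only (14.3%), 55 (and 1 lower) with the library axis as a term (18.4%), 0 without the 3 shallow libraries (1.03%) and 0 with HPPE replicates 2 and 3 summed (1.49%); with each library left out in turn they ran from 0 to 26. For HPPE against the control, 1 subunit was called higher with no filter (1.42% of all genes) and 17 with the library axis (8.85%). With a library left out it was 0 to 3 (3.33% in the fit with 3). For zinc protoporphyrin against the control, 1 was called lower with no filter (0.866%) and 30 with the axis (11.7%). For tin protoporphyrin against the control, 1 was called lower with the axis (5.79%). For zinc against tin protoporphyrin, 2 were called lower with no filter (0.518%) and 25 with the axis (6.9%). With a library left out it was 0 to 9 (4% in the fit with 9). For HPPE against tin protoporphyrin, 20 were called higher with the axis (8.29%). The cause of these changes was not tested, except that fits with fewer libraries estimate the spread from fewer. The length and GC correction turned the sign in HPPE against zinc protoporphyrin of NDUFS1 (0.085) and UQCRC1 (-0.079). The median over subunits in tin protoporphyrin against the control changed sign when libraries were left out, from -0.06 to 0.19. With the replicate number as a block, 2 subunits were called higher in HPPE against zinc protoporphyrin, ATP5MC3 and COX6C (2.38% of all genes). Whether the numbers pair the libraries was not settled. Same-numbered deviations correlated at -0.37 to 0.27. For 0 of 12 libraries was the same number the closest match in every other group at once, a strict rule that does not exclude pairing. Depth limited the genes under about 3 CPM, where NDUFV2 (195 counts in all) and NDUFA4L2 (215) lie.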
